A study of Mus musculus with 4 samples.

Results

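The peaks described here are those that start in the first megabase of assembled sequence of each mouse autosome, next to the centromere. They were chosen by position alone, as all deposited peaks on chromosomes 1 to 19 with a start below 4000000 in mm9, the genome build named in the submitters' processing notes. The rule took 783 of 109740 peaks (0.714%) called in proliferating cells and 4826 of 699290 (0.690%) called in arrested cells, 5609 of 809030 in all. No member started below 3000000, and the lowest starts were 3000703 in the proliferating and 3000316 in the arrested list. They are compared with the peaks of the same 19 autosomes that start from 10 to 20 Mb, 7904 proliferating and 51685 arrested.

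The chromatin came from C57BL/6 mouse embryonic fibroblasts, primary cells taken from E13.5 embryos and used at passage 4. It was fixed with both ethylene glycol bissuccinimidylsuccinate and formaldehyde and recovered with antibodies to pRb for ChIP-seq. Of the 4 samples, 1 immunoprecipitate and 1 input represent cells proliferating asynchronously in 10% serum, and the other immunoprecipitate and input represent cells arrested by 72 hours in 0.1% serum. All 4, inputs included, are labelled KO, with no name for the deleted gene. Whether pRb was present in the cells is therefore not known here, and what follows describes peak calls, not pRb binding. The labels list several antibodies without saying whether they were pooled, and each growth state has 1 immunoprecipitated library and 1 peak list, so no difference between growth states has a replicate check. Neither the inputs nor a wild-type reference, to which the series' design text refers, were analysed here.

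pRb, the retinoblastoma protein, binds E2F transcription factors and holds cell cycle genes silent when it is not phosphorylated. It also has roles at condensed, repeat-rich chromatin, and the series' title names the silencing of endogenous retroelements as its subject. Mouse autosomes carry their centromere at one end, where the numbering begins. The centromere itself consists of minor satellite repeats, flanked by pericentromeric major satellite arrays that are packed into heterochromatin and largely absent from the assembly, so the first bases of assembled sequence are those nearest to that heterochromatin. Reads from sequence present in many copies are hard to place, and neither repeat content nor mappability was measured here.

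Nearness to the centromere was not accompanied by a general rise in peak calls. Proliferating cells had 41.2 peaks per Mb in the first megabase and 41.6 per Mb from 10 to 20 Mb, a ratio of 0.991 (95% interval 0.919 to 1.066). Arrested cells had 254 and 272 peaks per Mb, a ratio of 0.934 (0.906 to 0.962). These intervals, like all those below, cover counting error only and come from 1 library per list. Of the 19 autosomes, chromosome 14 raised both ratios most when it was left out, to 1.046 (0.970 to 1.126) in proliferating cells and to 0.978 (0.949 to 1.008) in arrested cells, so the arrested deficit was no longer outside its counting error without it.

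The spread along the chromosomes gives a second measure of error. The first megabase can be set beside the 10 one-megabase positions from 10 to 20 Mb, each summed over the 19 autosomes. Those positions held 41.6 ± 2.42 proliferating peaks per Mb (SD over 10 positions, from 36.9 to 44.3), and the first megabase lay inside that range. In arrested cells they held 272 ± 8.33 peaks per Mb, from 259.6 to 284.6, and the first megabase lay below the lowest of them. Without chromosome 14 the first megabase had 265.2 arrested peaks per Mb, inside the range of 260.1 to 284.6. Peaks covered 7.13 kb per Mb in the first megabase and 6.86 ± 0.343 from 10 to 20 Mb in proliferating cells, and 62.6 and 64.2 ± 2.27 kb per Mb in arrested cells. Without chromosome 14 the proliferating cover was 7.47 kb per Mb, above the range of 6.17 to 7.17 over the same 10 positions. That cover includes 5.95 kb in 4 wide peaks of chromosome 11, described below, and was not computed without them. Leaving them out of all 19 autosomes gave 6.82 kb per Mb.

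Single chromosomes fell on both sides. The density ratio was above 1 on 10 autosomes and below 1 on 9 in proliferating cells, and above 1 on 8 and below 1 on 11 in arrested cells. Each autosome had 5 to 63 proliferating members, with a median of 45, whereas arrested cells had 52 to 333, with a median of 261. Both lowest counts were those of chromosome 14. The next lowest were 29 proliferating peaks, on chromosome 3, and 234 arrested peaks, on chromosome 19. In proliferating cells 2 first megabases (chromosomes 3 and 14) held fewer peaks than each of the 10 windows of their own chromosome, and 1 (chromosome 18) held more. The same was true of 12.6% and 5.26% of the 190 windows from 20 to 30 Mb, so these counts are near what other stretches show. In arrested cells 5 first megabases (chromosomes 9, 11, 14, 18 and 19) were below all 10 windows and 1 (chromosome 1) was above them, where windows from 20 to 30 Mb gave 10% and 11.6%.

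**Figure D1:**
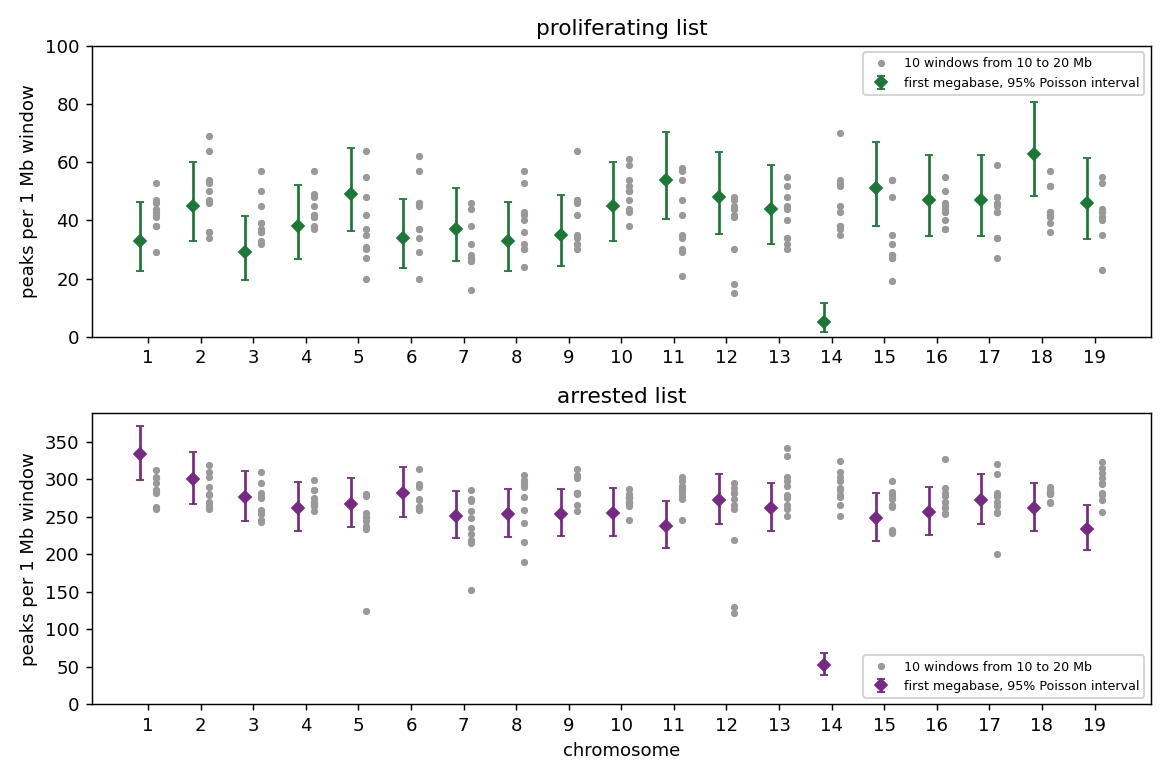
Peaks per 1 Mb window on each autosome, for the first megabase (diamonds, with 95% Poisson intervals) and for the 10 windows from 10 to 20 Mb (grey points), in the proliferating list (top) and the arrested list (bottom). Chromosome 14, with 5 and 52 peaks, is the one autosome whose first megabase lies far below its other windows in both lists.

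In the proliferating list the 3 highest ratios belonged to chromosomes 15, 18 and 11. Chromosome 15 had 51 peaks in its first megabase against 35.2 ± 12.4 per window (SD over 10 windows), a ratio of 1.449 (1.058 to 1.948). Its count lay within its own windows, which ran from 19 to 54. Chromosome 18 had 63 against 44.7 ± 6.67, a ratio of 1.409 (1.065 to 1.838), above its highest window of 57. Chromosome 11 had 54 against 40.7 ± 12.9, a ratio of 1.327 whose interval of 0.980 to 1.766 includes 1. The lowest were chromosome 14, described next, chromosome 3 with 29 against 40.4 ± 7.95 (0.718, interval 0.475 to 1.047) and chromosome 1 with 33 against 42.1 ± 6.40 (0.784, 0.533 to 1.118).

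In the arrested list chromosome 1 had the highest ratio, with 333 peaks against 284.8 ± 18.7 per window (1.169, interval 1.041 to 1.310), and these peaks covered 85.0 kb against at most 75.0 kb in any of its 10 windows. Chromosomes 12 and 5 followed at 1.126 and 1.119, both with intervals that include 1 (0.990 to 1.277 and 0.983 to 1.271). The lowest after chromosome 14 were chromosome 19, with 234 peaks against 292.4 ± 20.6 (0.800, 0.697 to 0.915), and chromosome 11, with 238 against 283.2 ± 15.9 (0.840, 0.733 to 0.960). Chromosome 11 was thus among the highest in one list and among the lowest in the other.

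The lists did not rank the chromosomes alike. Of the 19 autosomes, 4 had a ratio above 1 in both lists, 5 below 1 in both, 6 above 1 in proliferating and below 1 in arrested cells, and 4 the reverse. Across the 19 ratios Pearson's r was 0.57 and Spearman's rho -0.02. Without chromosome 14 they were -0.15 and -0.20 across 18 chromosomes. Both ratios of a chromosome share its sequence and its gaps, and chromosomes are not replicates, so these are descriptions.

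The proportion of arrested to proliferating peaks was slightly below that of the compared region. It was 6.16 in the first megabase and 6.54 from 10 to 20 Mb, a ratio of 0.943 whose interval of 0.871 to 1.020 includes 1. The interval no longer included 1 without chromosome 1, where the ratio was 0.918 (0.846 to 0.995), or among the upper 50% of each list by score, where it was 0.832 (0.744 to 0.931). By chromosome the interval excluded 1 on 4 of 19, with no adjustment for the number of chromosomes: the proportion was higher in the first megabase on chromosome 1 (1.49 times, 1.03 to 2.16) and lower on chromosomes 11 (0.633, 0.463 to 0.866), 15 (0.652, 0.473 to 0.899) and 18 (0.661, 0.493 to 0.886). How often this interval excludes 1 for other 1 Mb windows was not computed, so the count of 4 has no background share. The proliferating counts of chromosomes 1, 11 and 15 (33, 54 and 51) lay within their own 10 windows (29 to 53, 21 to 58 and 19 to 54). That of chromosome 18, 63, lay above its highest window, 57. All of these proportions set 1 library against 1 library.

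The centromeric end of chromosome 14 held few peaks in both growth states. Its first megabase held 5 proliferating peaks (95% Poisson interval 1.62 to 11.7) against 46.5 ± 10.9 per window from 10 to 20 Mb, and 52 arrested peaks (38.8 to 68.2) against 288 ± 21.5. The ratios were 0.108 (0.0348 to 0.253) and 0.181 (0.135 to 0.237), and neither count came near the lowest of the 10 windows, 35 and 251. Read against all 2406 autosomal 1 Mb windows, it was the only first megabase with an arrested count more than 1.5-fold below the median window of its chromosome, as were 2.04% of all windows. In proliferating cells 2 first megabases, those of chromosomes 3 and 14, were as far below, against 7.98% of windows. No first megabase of either list was more than 1.5-fold above the median window, against 1.54% of proliferating windows and 0% of arrested windows.

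The few arrested peaks in the first megabase of chromosome 14 differed in shape from those of the compared region. Their median width was 364 bp (order-statistic interval 315 to 391), against 167 bp from 10 to 20 Mb of the same chromosome. Of the 52, 37 (71.2%, exact interval 56.9 to 82.9) were at least 300 bp wide, and none had the list's narrowest width of 144 bp, a count of 0 that allows a share of up to 5.77%. The authors' score for each peak, whose scale is unstated and which is used only within a list, had a median of 29.3 (26.3 to 32.2) against 97.5. The lowest score in either list is 20, and 47 of the 52 (90.4%, 79.0 to 96.8) scored below 50, so these were wide calls close to the list's floor. They were not bunched: each 100 kb held from 2 to 10 of them, and the longest stretch without one was 113 kb.

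The 5 proliferating peaks on chromosome 14 started at 3093878, 3166563, 3176207, 3328037 and 3582259. They were 254, 192, 189, 220 and 199 bp wide, all above the median width of 151 bp that proliferating peaks had from 10 to 20 Mb on that chromosome, and scored 28.4, 22.5, 22.8, 25.8 and 21.7. None overlapped an arrested peak, but only 12.4% of all proliferating members did, so none among 5 says little. Chromosome 14, with the fewest members, was the only autosome without a member shared between the lists.

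The sparse stretch ran on past the first megabase. The next 4 windows of chromosome 14, from 4 to 8 Mb, held 11, 9, 4 and 15 proliferating peaks and 100, 43, 67 and 102 arrested peaks. In those 4 windows the arrested median widths were 373, 364, 387 and 367 bp and the median scores 32.5, 29.1, 29.8 and 35.4. From 8 to 9 Mb the counts were 36 and 198, with an arrested median width of 193.5 bp. From 9 to 10 Mb they were 40 and 309, with a width of 170 bp and a score of 97.5, the level of the rest of the chromosome. The passage from few, wide, low-scoring arrested peaks to the usual density, width and score thus lay between the windows starting at 7 and at 9 Mb. Sparse arrested windows recurred further along chromosome 14. Those starting at 42 and 43 Mb held 179 and 176 peaks, with median widths of 356 and 394.5 bp and scores of 38.8 and 36.5. The window starting at 53 Mb held 143, with a median width of 195 bp and a score of 80.4. In the arrested list 41 windows of other autosomes were more than 1.5-fold below the median window of their chromosome. Of them, 8 held no peak, and whether those are assembly gaps was not tested. Of the 33 that held 3 to 169 peaks, 19 had a median width above 300 bp.

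**Figure D2:**
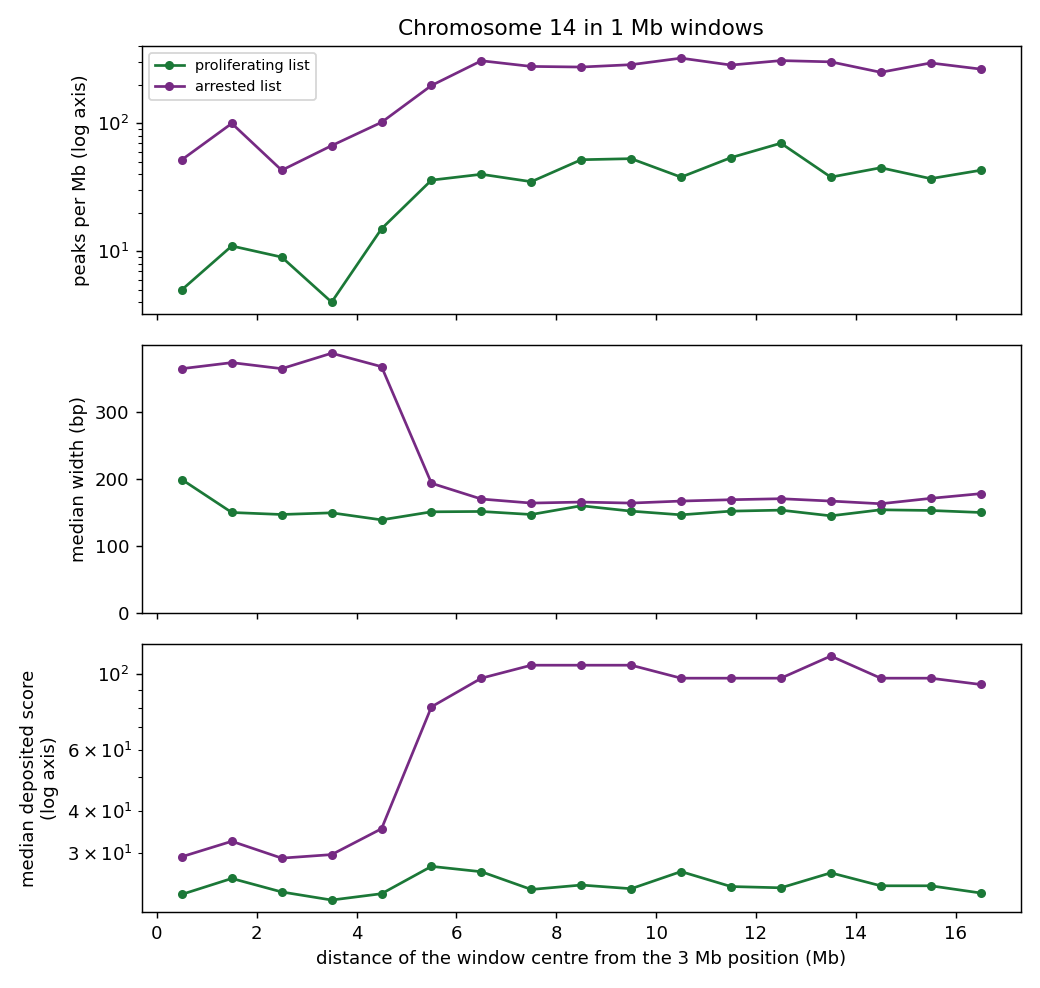
Chromosome 14 in 1 Mb windows, by distance from the 3 Mb position: peaks per Mb (log axis), median width in bp and median deposited score (log axis), for the proliferating (green) and arrested (purple) lists. The first 5 windows hold 4 to 15 proliferating and 43 to 102 arrested peaks, and the arrested widths of 364 to 387 bp fall to about 170 bp as the counts rise; the 2 lists' scores have not been shown to share a scale.

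Widths and scores differed from the compared region mainly in arrested cells. The median width of proliferating members was 154 bp (152 to 159) against 153 bp (152 to 153), with quartiles of 136 and 189 against 134 and 185 bp. Their median score was 24.5 (24.0 to 25.2) against 24.1 (24.0 to 24.4). The share of proliferating members in the upper 10% of autosomal scores, 79 of 783 (10.1%, 8.07 to 12.4), also matched that of the compared region, 9.86%. In arrested cells the median width was 171 bp (170 to 174) against 167 bp (167 to 168). Over the 10 positions from 10 to 20 Mb the arrested median ran only from 167 to 168 bp, so 171 bp lay outside that range. The arrested median score was 95.4 (91.4 to 97.5) against 97.5 at each of the 10 positions, and it was also 97.5 without chromosome 14 or without chromosome 16, so this difference was lost with either of them left out.

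The tails of the arrested list moved more than its medians. Of the members 962 (19.9%, 18.8 to 21.1) scored below 50, against 15.4% (15.1 to 15.7) from 10 to 20 Mb, and 410 (8.50%, 7.72 to 9.32) were in the upper 10% of autosomal scores, against 10.5%. Of the members 211 (4.37%, 3.81 to 4.99) were at least 500 bp wide, against 3.57% (3.41 to 3.73). All 3 differences remained outside the counting intervals of the ratio without chromosome 14, where the shares were 19.2%, 8.59% and 4.29% against 15.4%, 10.4% and 3.60%. The shortest arrested width, 144 bp, was held by 10.7% of members and 11.6% of compared peaks, and the interval of that ratio, 0.844 to 1.001, includes 1. By chromosome, the arrested median width was higher in the first megabase on 14 autosomes, lower on 4 and equal on 1. The median score was higher on 2, lower on 13 and equal on 4.

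The differences in width, median score and low scores were largest in the first 300 kb, a division made after the values were seen. In 100 kb bins summed over the 19 autosomes, the first 3 bins had arrested median widths of 255, 202.5 and 197 bp, whereas the 100 bins from 10 to 20 Mb ran from 164 to 185.5 bp. Their median scores were 72.2, 80.4 and 80.4, all below the lowest of the 100 bins, 88.8. The share of peaks scoring below 50 was 36.5%, 27.7% and 22.8% in these bins, above the highest of the 100, 20.8%. The share of at least 500 bp, 7.20%, 5.33% and 4.38%, stayed within the compared bins, whose highest was 7.41%. From the 300 kb point on, the remaining 7 bins had widths of 164 to 173 bp and scores of 97.5 to 106.3, inside the range of the compared bins. Without chromosome 14 the first 3 widths were 250.5, 197 and 188 bp; the third then lay below the highest compared bin, 192 bp, as did its share of low scores, and the 3 scores were unchanged.

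The first 100 kb also held fewer arrested peaks, 389 against 517 ± 27.9 (SD over 100 bins, from 463 to 594). No other bin of the first megabase was outside that range. In proliferating cells its 66 peaks lay within the range of 57 to 101. Their median width of 173.5 bp was above the highest of the 100 bins, 170 bp, and their median score of 27.4 was above the highest, 27.2, a margin that was lost without chromosome 14. Against the compared bins, the median score of the first 100 kb was thus low in arrested cells and, by that small margin, high in proliferating cells. Median widths were high in both. The 66 proliferating peaks include the 4 wide ones of chromosome 11 and the run of 6 on chromosome 18 described below, and their medians were not computed without these.

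Over the whole first 300 kb the 1356 arrested peaks had a median width of 222 bp (203 to 240), wider than from 10 to 20 Mb on 15 of 19 autosomes and narrower on 3. Their median score of 80.4 was below that of the compared region on 16 autosomes and above it on none. From 300 to 1000 kb the 3470 arrested peaks had a median of 168 bp (167 to 169), and their score was higher on 7 autosomes and lower on 5. The widest medians in the first 300 kb were on chromosomes 14 (354 bp), 6 (316), 16 (309), 4 (305.5) and 19 (299). The narrowest were on chromosomes 2, 11 and 17, at 162, 164 and 165 bp.

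**Figure D3:**
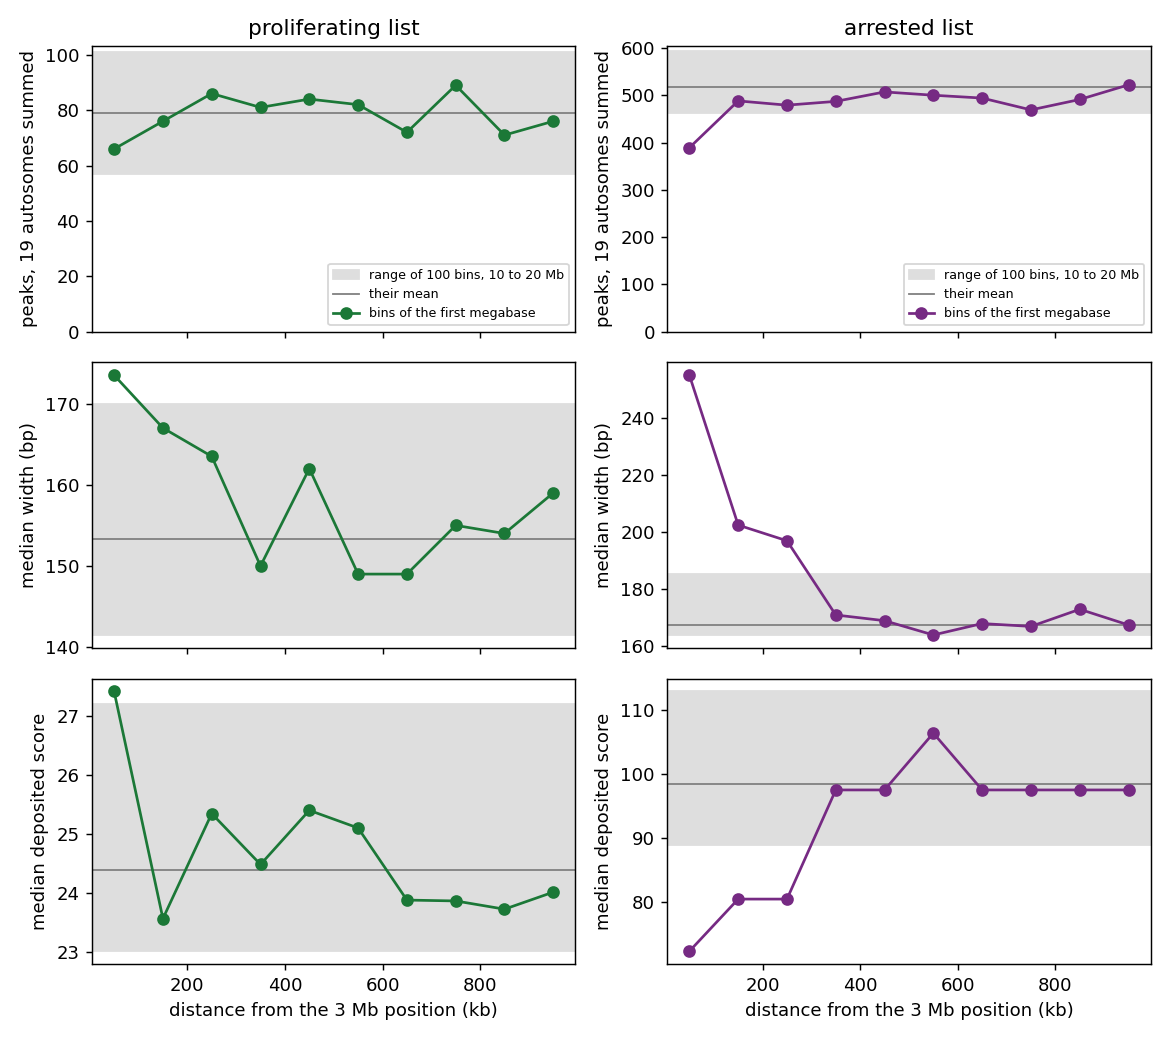
Number of peaks, median width and median deposited score in 100 kb bins of the first megabase, summed over 19 autosomes, against distance from the 3 Mb position, for the proliferating (left) and arrested (right) lists. The grey band is the range and the line the mean of the 100 bins from 10 to 20 Mb; the first 3 arrested bins lie above the band in width and below it in score.

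Width and score were tied in the arrested list, so both were read within width classes. Peaks of at least 300 bp made up 37.4% of the first 300 kb, 26.1% of the next 700 kb and 26.0% of the compared region. They scored lower than narrow ones in each of these: medians were 46.1 (42.9 to 50.3), 51.2 (48.2 to 54.3) and 56.8 (55.6 to 58.0). The peaks narrower than 300 bp had medians of 97.5, 115.4 and 115.4 in the same order. The lower scores near the centromere therefore appeared in both width classes as well as in the larger share of wide peaks. Among proliferating members the split at 300 bp ran the other way: the 15 of at least 300 bp had a median score of 40.6 (30.2 to 50.1), and the 768 narrower ones 24.3 (23.9 to 25.1). The 15 include the 4 wide peaks of chromosome 11 and the widest of the run on chromosome 18, both described below. The split does not describe width and score among the narrower members, where the highest score, 68.75, belonged to peaks of 78, 63 and 64 bp.

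Over the whole first megabase, chromosome 16 was second to chromosome 14 in how wide and how low-scoring its arrested peaks were by their medians. Its number of arrested members was ordinary, 256 against 274.6 ± 21.4 per window, but their median width was 256.5 bp (224 to 283), against 162 to 173 bp in its 10 windows. Their median score was 72.4 (65.6 to 87.4), below the range of 97.5 to 106.3 of the 10 windows, and 34.0% scored below 50, where the highest of the 10 windows had 16.8%. On this chromosome the pattern did not stop at 300 kb, since its peaks from 300 to 1000 kb still had a median width of 240 bp. In the next megabase, from 4 to 5 Mb, the width was back within its windows at 166 bp. The score of 88.8 was still below their range, 19.7% of peaks scored below 50, above their highest share, and the 234 peaks were fewer than in any of the 10 windows (254 or more). Proliferating peaks on chromosome 16 showed no such shift, with a median width of 151 bp and a median score of 24.0, both within their 10 windows.

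**Figure D4:**
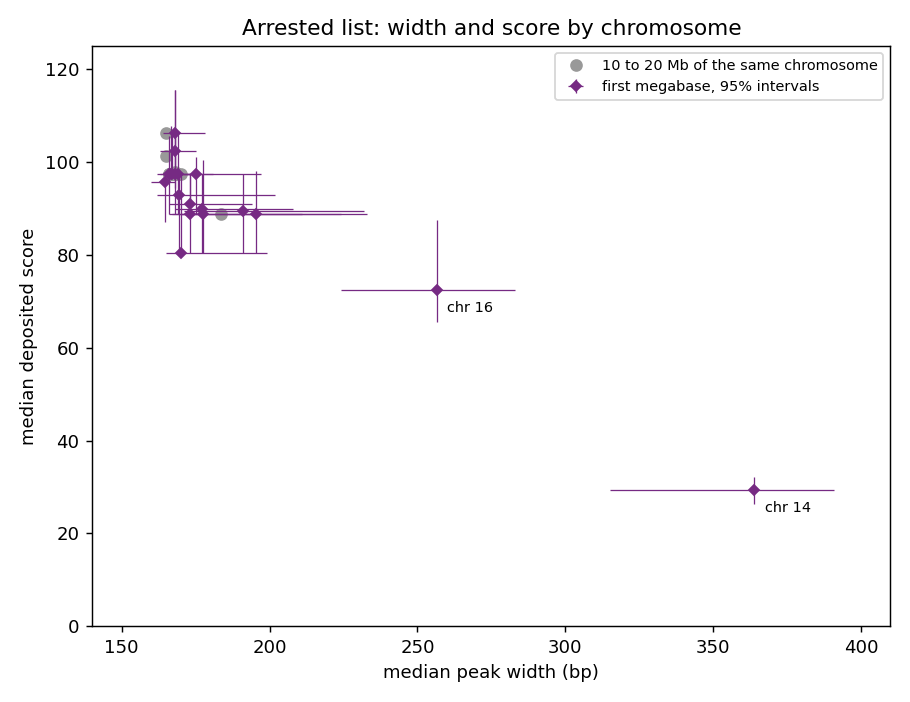
Median peak width (bp) against median deposited score of arrested peaks on each autosome, for the first megabase (diamonds, bars are 95% order-statistic intervals) and for 10 to 20 Mb of the same chromosome (grey). Chromosomes 14 (364 bp, score 29.3) and 16 (256.5 bp, score 72.4) stand apart from the other autosomes.

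The widest proliferating members lay together on chromosome 11. Peaks of 1662, 1778 and 1559 bp, from 3075157 to 3080287, followed each other with so little between them that they covered 97.4% of 5131 bp, and another of 948 bp lay at 3082167 to 3083114. Their scores were 40.6, 25.4, 31.0 and 30.2, and the score of 40.6 was in the upper 10% of autosomal scores, which began at 37.3. These 4 made up 5.95 kb of the 14.1 kb covered on that chromosome, which exceeded each of its 10 windows (at most 9.79 kb). The remaining 8.11 kb did not. They were also 4 of the 6 proliferating members of at least 500 bp, and such peaks were 0.766% of members (0.282 to 1.66) against 0.253% of compared peaks (0.155 to 0.391). Those intervals count each peak as independent, though wide peaks lay together. The compared region had such concentrations too: peaks of at least 500 bp were 2.06% of its proliferating peaks on chromosome 5 and 2.84% on chromosome 8. Single windows of those chromosomes covered up to 16.6 and 19.6 kb, more than the 14.1 kb of chromosome 11. With the 4 wide peaks of chromosome 11 left out, the covered length of all proliferating members fell to 6.82 kb per Mb, a ratio to the compared region of 0.994 in place of 1.040.

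No arrested peak was called within 20 kb of that block. It lay inside the longest stretch of the first megabase of chromosome 11 without an arrested call, 52.0 kb from 3054495 to 3106505. The stretch began where the widest arrested member of all ended, a peak of 2337 bp from 3052158 to 3054494 with a score of 151.06. The widest member of each list thus lay on the same chromosome, 22392 bp apart. The 1662 bp proliferating peak was nearer to the arrested one, at 20662 bp. The fifth widest proliferating member, 712 bp at 3017705 to 3018416 on chromosome 4 (score 36.6), was not shared either, where 12.4% of proliferating members were. Its nearest arrested peak was 5094 bp away.

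A second cluster lay at the start of chromosome 18. Within 2742 bp, from 3004236 to 3006977, the proliferating list had 6 peaks separated by at most 1000 bp, the longest such run among its members. In the compared region, with 10 times the length, the longest run had 4. The widths of the 6 peaks were 205, 216, 472, 412, 413 and 130 bp and their scores 39.4, 29.4, 59.3, 59.8, 64.3 and 52.1. The peaks of 413 bp (3006191 to 3006603) and 412 bp (3005640 to 3006051) were among the 5 highest-scoring proliferating members, ranking 465 and 531 among 103832 autosomal peaks. The arrested list had 1 peak in this run, 388 bp from 3006209 to 3006596, which lay wholly inside the 413 bp one. Its score of 33.4 was near the low end of that list, at rank 614811 of 657384.

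**Figure D5:**
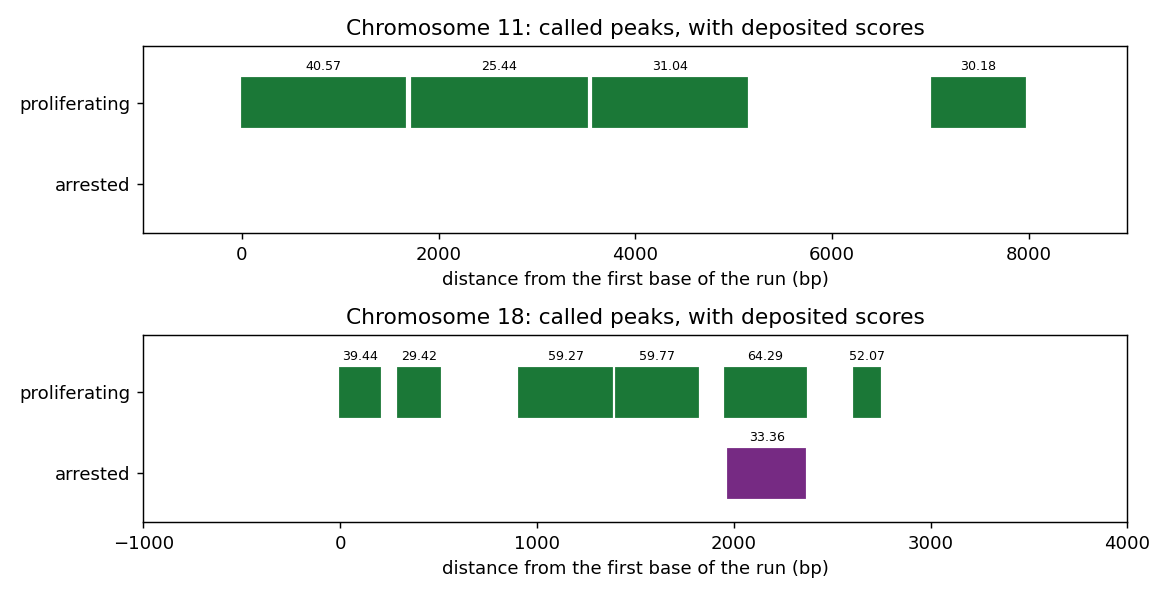
Called peaks of both lists on chromosome 11 (top) and chromosome 18 (bottom), drawn to scale by distance in bp from the first base of the run, with the deposited score above each. On chromosome 11 the 4 proliferating peaks have no arrested counterpart in the stretch drawn, and on chromosome 18 1 of 6 has one.

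The other 3 of the 5 highest-scoring proliferating members were very narrow. They shared a score of 68.75 and rank 128, and were 78 bp on chromosome 1 (3880205 to 3880282) and 63 and 64 bp on chromosome 12 (3608081 to 3608143 and 3711584 to 3711647). None overlapped an arrested peak, which only 12.4% of all proliferating members did. The nearest arrested calls were 2542, 995 and 219 bp away. The highest-scoring peaks of the list outside this region reached 148.23.

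The highest-scoring arrested members were narrow as well. None overlapped a proliferating peak, which only 2.01% of all arrested members did. On chromosome 2 lay one of 179 bp (3575544 to 3575722) with a score of 525.39, the highest of all members. The others were 145 bp on chromosome 19 (3849626 to 3849770, 511.91), 148 and 175 bp on chromosome 1 (3104267 to 3104414 and 3899289 to 3899463, both 498.52) and a 172 bp peak on chromosome 2 (3591731 to 3591902, 485.2). Their ranks among autosomal peaks ran from 897 to 1559. They were thus high in a list of 657384 autosomal peaks, though far in score from the maximum of the whole list, 3100.

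After the 2337 bp peak on chromosome 11, the widest arrested members were 1257 bp on chromosome 13 (3407288 to 3408544, score 149.58), 1218 bp on chromosome 4 (3126958 to 3128175, 29.25), and 1195 and 1187 bp on chromosome 15 (3628926 to 3630120, 205.39, and 3768982 to 3770168, 51.03). Only the chromosome 13 peak overlapped a proliferating peak, by 149 bp, where 2.01% of all arrested members overlapped one. In all, 9 arrested members reached 1000 bp (0.186%, 0.0853 to 0.354), against 0.108% of compared peaks (0.0819 to 0.141).

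Members were shared between the growth states about as often as other peaks. Of the proliferating members 97 (12.4%, 10.2 to 14.9) overlapped an arrested peak by at least 1 bp, against 12.0% (11.3 to 12.7) from 10 to 20 Mb, a ratio of 1.035 (0.851 to 1.259). Of the arrested members 97 (2.01%, 1.63 to 2.45) overlapped a proliferating peak, against 1.82% (1.71 to 1.94), a ratio of 1.103 (0.897 to 1.356). They formed 98 pairs on 18 chromosomes, from 1 to 567 bp of overlap with a median of 115 bp. In 33 pairs the overlap reached 50% of the wider peak. The number of overlaps expected of peaks placed at random was not computed. Chromosome 16 held most, with 11 pairs.

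Shared members spanned nearly the whole range of ranks, from 465 to 100702 of 103832 in the proliferating list and from 7695 to 656569 of 657384 in the arrested list. The pair whose poorer rank was best lay on chromosome 5, where a 183 bp proliferating peak (3472988 to 3473170, score 30.25, rank 26565) met a 173 bp arrested peak (3473057 to 3473229, score 296.4, rank 20681). The next 4 were on chromosome 12 (proliferating start 3788115), chromosome 11 (3020342), chromosome 9 (3497446) and chromosome 16 (3783178), with poorer ranks of 32760, 52099, 52475 and 60261. In each of these 5 pairs the proliferating score was between 24.0 and 31.3, in a list whose lowest score is 20.

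Neighbouring members lay as close as neighbours elsewhere. The next peak was within 1000 bp for 5.62% of proliferating members (4.11 to 7.47), against 4.97% in the compared region, and for 24.4% of arrested members (23.2 to 25.7), against 25.1%. Both shares were within counting error of the compared one. The first call of a chromosome came at a median start of 3030187 in proliferating and 3003936 in arrested cells. Chromosome 9 was last in both, with first calls at 3154113 and 3043206, so that no peak of either list was called in its first 43.2 kb.

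The limit at 4 Mb fell in an ordinary stretch: the 100 kb just inside it held 76 proliferating and 522 arrested peaks, with median widths of 159 and 167.5 bp and scores of 24.0 and 97.5, and the 100 kb just outside held 60 and 503, with 153 and 165 bp and 24.7 and 97.5.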

How the data were processed

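The tools named in the submitters' processing notes are Bowtie2, MACS2, HOMER and bedtools, and the build is mm9. Versions, settings, duplicate handling and the role of the input are details not given in the sources used here. Peak lists were deposited by the authors, 1 per immunoprecipitate and without a header, with chromosome, start, end, name and a score per peak on an unstated scale. Coordinates are mm9 as deposited, written 1-based. The lists give no read counts, so the depth behind a peak is unknown.

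Peaks on chromosomes 1 to 19 with a deposited start below 4000000 were set against those starting from 10000000 to below 20000000. Densities used 1 Mb from 3000000 and 10 Mb per autosome. Density ratios have exact conditional binomial 95% intervals, shares exact binomial ones, medians order-statistic ones, ratios of shares and of ratios log-normal ones, and a count of 0 was read as up to 3 counts. All of these reflect counting error alone. No p-value was computed, since each growth state has 1 library.

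Named peaks are the 5 highest-scoring and 5 widest members of each list and the 5 shared pairs with the best poorer rank; named chromosomes are the 3 highest and 3 lowest by density ratio, and chromosomes named for width, cover, runs or first call were chosen after their values were seen. The members and comparisons were chosen with earlier results of these data known. Sequences and genes are not given, because an mm9 genome and its annotation were not used here. Overlap, interval and median code was tested on simulated peaks. Python 3.11.15, numpy 2.4.6, pandas 2.3.3, SciPy 1.17.1 and matplotlib 3.10.9 were used.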

Additional observations from a re-analysis of the deposited data

How the results depend on the processing

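No paired analysis was possible because each growth state had 1 library, and for the same reason no replicate could be left out. Over 7 alternatives to 11 values (density, cover, width, score, overlap and the proportion of the lists), 50 values lay inside the reported value's interval, 11 moved and 0 turned from a reported direction outside its interval. For the cover ratios that interval was not counting error. It was 1 SD over the 10 positions from 10 to 20 Mb on either side of the ratio. Taking the upper 50% of each list by score moved most: the proliferating cover ratio to 1.14 and score difference to -0.335, and, in arrested cells, the density ratio to 0.856, the cover ratio to 0.874, the width difference to 1 bp, the score difference to -9.89 and the proportion of arrested to proliferating peaks to 0.832 (interval 0.744 to 0.931). A compared region of 20 to 30 Mb put the arrested cover ratio at 1.022, on the other side of 1 from 0.975. A limit at 5 Mb put the arrested width difference at 2 bp, and merging peaks within 1000 bp put it at 26 bp and the score difference at -12.8. The cause was not tested.

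Leaving out each autosome in turn gave density ratios of 0.966 to 1.046 (proliferating) and 0.920 to 0.978 (arrested), cover ratios of 0.981 to 1.095 and 0.958 to 1.014, width differences of 1 to 2 bp and 3 to 5 bp, score differences of 0.055 to 0.400 and -3.33 to 0, ratios of shared peaks of 0.974 to 1.063 and 1.034 to 1.158, and proportions of the lists of 0.918 to 0.967, the lowest without chromosome 1, where the interval of 0.846 to 0.995 excluded 1. The highest density and cover ratios of both lists were those without chromosome 14, and the lowest proliferating cover ratio was that without chromosome 11. Without read counts the lists could not be brought to a common depth.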

Other observations

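The X chromosome, which the rule leaves out, looked unlike the autosomes at the same position. Its first megabase held 82 proliferating peaks against 36.9 ± 6.45 per window from 10 to 20 Mb of X (SD over 10 windows, from 30 to 50), and 170 arrested peaks against 279.7 ± 17.6 (254 to 314). The counts of the lists thus lay on opposite sides of their windows. The arrested peaks there had a median width of 544.5 bp against 168 bp and a median score of 32.1 against 97.5, and they covered 103.7 kb against 66.1 kb per Mb. The proliferating ones had a median width of 205 bp against 153 bp and a median score of 25.3 against 24.1, and covered 18.4 kb against 5.93 kb per Mb. Of these values, wide and low-scoring arrested peaks in small number were also seen on chromosome 14, where proliferating peaks were few as well. Repeat content and mappability were not measured on either chromosome.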
